A study of Spirodela polyrhiza with 13 samples.

Results

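Late frond development in the greater duckweed, Spirodela polyrhiza, was described by setting the stage 6 libraries against the stage 4 libraries, 5 of the 13 messenger RNA libraries of the series. All 5 came from frond tissue of wild-type plants, with 2 libraries at stage 6 and 3 at stage 4, and the 2 libraries of stage 5 in between were left out of the contrast. The groups shared genotype, tissue and culture in SH medium, with 16 h of light and 8 h of darkness a day, and differed in developmental stage alone as far as the labels say. The labels neither define the numbered stages nor give ages. Whether libraries of 1 stage were made from separate plants or cultures is not stated either, so a p-value here measures library-to-library spread that may be technical. The samples were chosen by stage only, and genes were compared on log2(FPKM + 1), where FPKM is the number of fragments on a gene scaled by the length of its model and by the library's reads on genes.

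A duckweed plant is little more than a floating frond, a flat leaf-like body that buds daughter fronds from pockets near its base. As a frond matures, its cells stop dividing and expand, and gas-filled spaces, the aerenchyma, open between them and keep the plant afloat. The study's title names plant hormones and the pattern of aerenchyma as its subject. The deposited table gives bare gene IDs with no names, so no gene below is assigned a function, no list of hormone, cell wall or photosynthesis genes could be applied, and the tissue label could not be checked against marker genes.

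Stage 6 libraries held 7724315 and 8884349 reads on genes, and stage 4 libraries 9278498 to 10650000, as recovered from the FPKM values. Of 19623 listed genes, 15364 reached at least 1 FPKM in at least 2 of the 5 libraries and were tested. Of the others, 2478 had no read in these libraries and 1781 were rarer than the filter, with stage means of at most 2.43 FPKM. Across tested genes, Pearson's r of log2(FPKM + 1) was 0.983 between the stage 6 libraries and 0.980 to 0.987 between stage 4 libraries, against 0.873 to 0.900 for the 6 pairs of a stage 6 with a stage 4 library. Genes are not independent replicates, so these values are descriptions. Stage 6 replicate 1 lay slightly farther from stage 4 (0.873 to 0.887) than replicate 2 did (0.887 to 0.900).

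Most measured genes differed in level between stage 6 and stage 4. Of 15364 genes, 9630 (62.7%) passed the test at adjusted p under 0.05 (limma, Benjamini-Hochberg adjustment), of which 3238 (21.1% of those tested) were higher at stage 6 and 6392 (41.6%) lower. Rises outnumbered falls among changes of at least 4-fold. At least 2-fold on the log2(FPKM + 1) scale, 1657 genes (10.8%) rose and 1604 (10.4%) fell, whereas at least 4-fold 474 (3.09%) rose and 28 (0.182%) fell. The balance at 2-fold was not stable, with 1759 rises and 2115 falls at a pseudocount of 0.1, 1679 and 2162 at 0.01, 1820 and 2050 with voom on recovered reads, and 1472 and 2191 without stage 6 replicate 2. At least 4-fold, falls numbered 119, 140 and 106 under the first 3 of these, against 715, 673 and 737 rises. At least 8-fold on the log2(FPKM + 1) scale, 154 rose and 3 fell. The added 1 FPKM limits how far a gene that is near 0 at stage 6 can fall on this scale. In the same way it limits how far a gene near 0 at stage 4 can rise. Ratios of reads for single genes below are larger. In bulk tissue, fewer cells of a type and less RNA per cell cannot be told apart.

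The excess of falls depended on scaling and was absent with median ratio scaling. The median change of all tested genes was -0.26 on the log2 scale, and median ratio scaling of the libraries shifted it upwards by 0.25. That scaling gave 4630 rises (30.1%) and 4199 falls (27.3%) among 8829 called genes (57.5%), so that rises made up 52.4% of calls, against 33.6% as deposited. All 3238 rises were also rises with median ratio scaling, 65.7% of the falls were also falls, and no gene called under both changed sign. The factors were 0.854 and 0.859 at stage 6 and 1.00 to 1.06 at stage 4. Dividing by them moves changes upwards, which largely fixed in advance that rises were kept. Of the genes not called as deposited, 1392 were called as rises with median ratio scaling. At least 2-fold, 2224 (14.5%) then rose and 669 (4.35%) fell. At least 4-fold, median ratio scaling gave 634 rises (4.13%) and 10 falls (0.0651%). Moving changes upwards adds large rises and takes away large falls, so the excess of large rises had to remain and this count is no support for it. Without stage 6 replicate 2 and with the deposited scaling, 56 genes fell at least 4-fold.

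**Figure D1:**
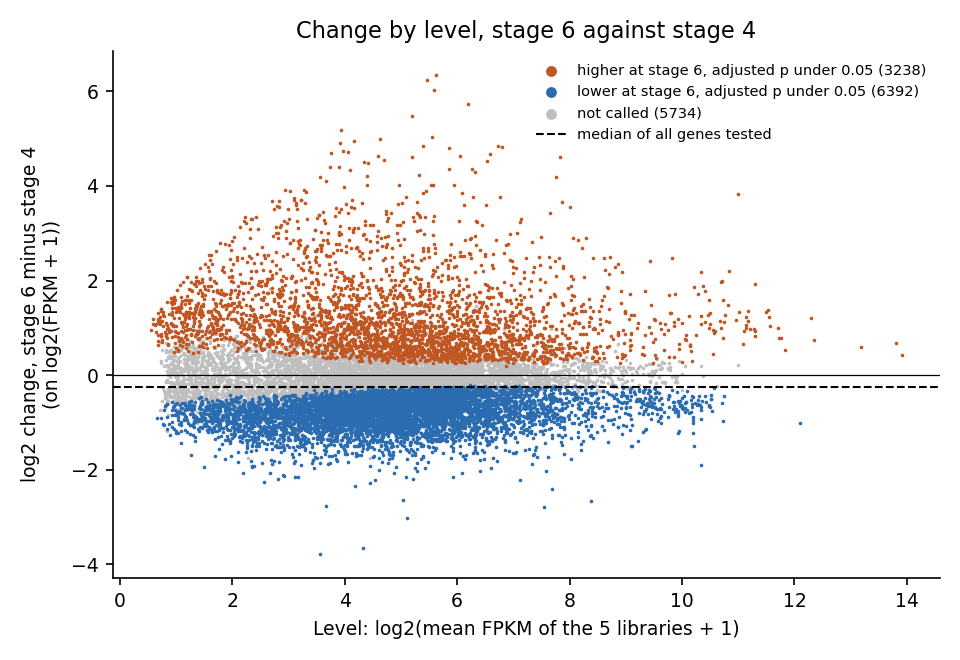
Each point is 1 of the 15364 genes tested, placed by its level (log2 of the mean FPKM of the 5 libraries + 1) and its log2 change, stage 6 minus stage 4. Rises reach 6.35 while falls reach -3.78, and the dashed line marks the median change of all genes, -0.26.

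The steepest rise on this scale was that of Spipo9G0025900 (coding length 417 bases). It was at 122 and 116 FPKM in the stage 6 libraries, against 0.509, 0.258 and 0.676 FPKM in the stage 4 libraries. Both stage 6 libraries were close together and far above all stage 4 libraries, which held 1 to 3 reads each. Genes were named only if called and without overlap, so separation and adjusted p of the named genes are descriptions. Spipo9G0025900 was under 1 FPKM in every stage 4 library and passed the filter through the stage 6 libraries alone. The log2 change was 6.35 (SE 0.22, adjusted p = 3.57e-09, limma), and pooled reads, 825 at stage 6 and 6 at stage 4, put it 243-fold higher at stage 6, where the 95% exact interval, 111 to 664, covers counting error only. It was equally near the detection limit at the earlier stages, with means of 0.549 ± 0.308 FPKM at stage 2 and 0.520 ± 0.257 FPKM at stage 3 (SD, n = 3 each). At stage 5 it was already at 66.0 and 92.4 FPKM.

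Spipo0G0190900 (672 bases) had the next largest rise, and the larger of both with library weights (6.60 against 6.51), a pseudocount of 0.1 (8.09 against 7.75) or 0.01 (9.32 against 8.03), voom (8.18 against 7.67) and without stage 4 replicate 3 (6.48 against 6.45), each value a log2 change of Spipo0G0190900 against one of Spipo9G0025900. It was at 117 and 98.3 FPKM in the stage 6 libraries, against 0.474, 0 and 0.978 FPKM in the stage 4 libraries, the 0 being stage 4 replicate 2. This gene too passed the filter through the stage 6 libraries alone. The groups did not overlap, as the choice of named genes required, and the log2 change was 6.24 (SE 0.27, adjusted p = 1.84e-08, limma). Pooled reads, 1195 at stage 6 and 10 at stage 4, gave a 211-fold difference with a 95% exact interval of 114 to 441. Its stage 5 values of 79.0 and 107 FPKM reached into the range of stage 6, so that nearly all of its rise lay before stage 5.

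The largest fall on this scale was that of Spipo7G0029200 (324 bases), which had no read in either stage 6 library. This gene passed the filter through the stage 4 libraries alone. It was at 0 and 0 FPKM at stage 6, against 35.1, 3.33 and 15.6 FPKM at stage 4. The stage 4 libraries differed widely among themselves, from 10 to 107 reads, and replicate 2 was the lowest. The log2 change was -3.78 (SE 0.73, adjusted p = 0.000647, limma). It was -3.09 without stage 4 replicate 1, -4.62 without stage 4 replicate 2 and -2.67 with library weights. The pooled stage 4 level was 32.3-fold above a floor of 3 reads over both stage 6 libraries, 0.557 FPKM, which is no lower bound of the fall. For the ratio of pooled reads, 0 against 171, the 95% exact interval has its lower bound at 26.0-fold and covers counting error only. Spipo7G0029200 was not a gene that had been high throughout, with means of 5.39 ± 0.752 FPKM at stage 2 and 1.90 ± 1.29 FPKM at stage 3 (SD, n = 3 each).

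Spipo9G0028100 (324 bases) fell to 1.60 and 1.04 FPKM in the stage 6 libraries, against 14.4, 43.6 and 34.2 FPKM in the stage 4 libraries. All stage 6 values lay below all stage 4 values, as the choice of named genes required, with 7 reads in all at stage 6 and 293 at stage 4. The log2 change was -3.65 (SE 0.43, adjusted p = 1.77e-05, limma), and pooled reads put the gene 23.7-fold lower at stage 6, with a 95% exact interval of 11.4 to 59.4. Its log2 change exceeded that of Spipo7G0029200 with library weights (-4.05) and without stage 4 replicate 1 (-4.10). Its means of 0.851 ± 0.931 FPKM at stage 2 and 4.47 ± 1.12 FPKM at stage 3 (SD, n = 3 each) were low as well, so that among the 5 stages it was high at stage 4 alone.

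**Figure D2:**
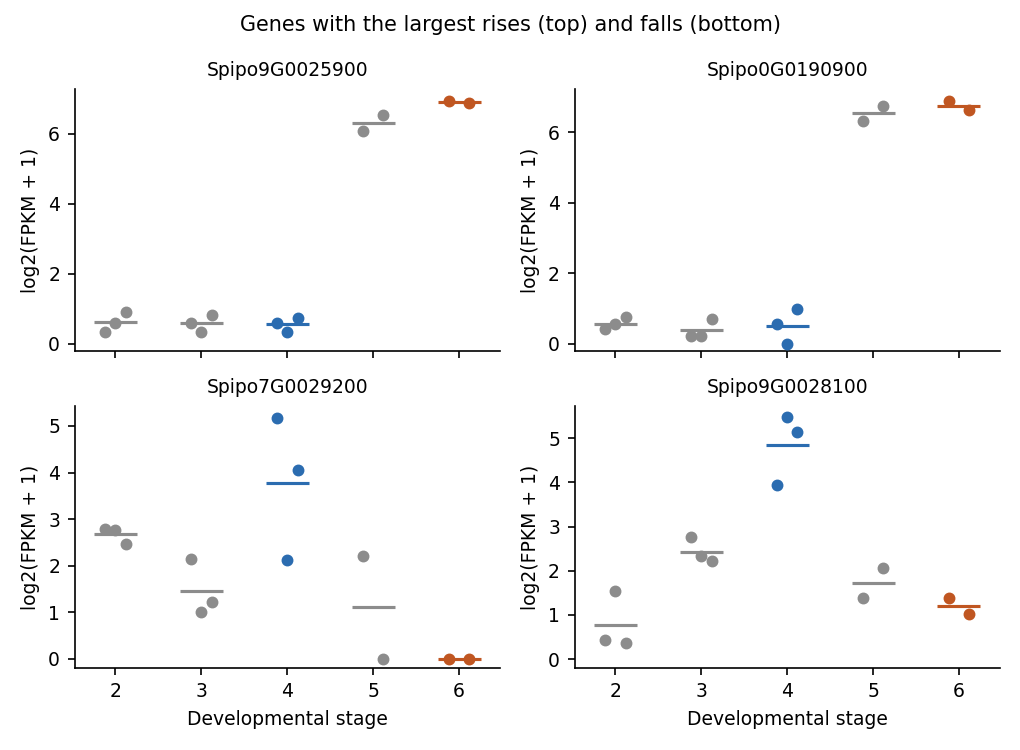
The FPKM values of the 2 genes with the largest rises and the 2 with the largest falls are shown on log2(FPKM + 1) for all 13 libraries, by developmental stage, with stage 6 in orange, stage 4 in blue and lines at the stage means. Both rising genes lie near 0 until stage 4 and near their stage 6 level at stage 5, while both falling genes have their highest mean at stage 4.

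The 474 genes that rose at least 4-fold came mostly from low levels. Their median FPKM was 38.7 at stage 6 and 4.28 at stage 4, where all tested genes had medians of 22.6 and 25.8 FPKM. At stage 4, 99 of them were under 1 FPKM, 231 from 1 to under 10, and 144 at 10 or more. At stage 6, 122 of them reached 100 FPKM and 5 reached 1000. Their stage 6 means ran from 3.19 to 4628 FPKM. The libraries of both stages did not overlap for 473 of the 474, against 25.4% of all tested genes with both stage 6 libraries above all stage 4 libraries. Being chosen for their difference, these genes had to separate, so this count is no support for it. Stage 6 replicate 1 was the higher of both in 242 of the 474 genes (51.1%). The stage 6 libraries lay at least 2-fold apart for 53 of the 474, against 1.81% of all tested genes, and the stage 4 libraries for 69, against 4.06%.

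Genes switched on from no reads were few. There were 3 genes at 5 FPKM or more in both stage 6 libraries without a read at stage 4, and 15 when up to 3 reads were allowed over the stage 4 libraries. All 15 reached 1 FPKM in both stage 5 libraries, and 2 of them had no read at stages 2 and 3. The reverse pattern was not seen, with 0 genes under either limit, although 12 genes met it with up to 10 reads over both stage 6 libraries, against 36 genes in the direction of a rise. By means, 51 genes were under 1 FPKM at stage 4 and at least 10 FPKM at stage 6, and 1 gene, Spipo7G0029200, showed the opposite.

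The 28 genes that fell at least 4-fold were a more uneven group. Their median FPKM was 5.91 at stage 6 and 37.0 at stage 4, and their median coding length of 651 bases was below the 1026 bases of all tested genes. The stage 4 libraries lay at least 2-fold apart for 10 of the 28, against 4.06% of all tested genes, and the median SD of log2(FPKM + 1) at stage 4 was 0.46, against 0.16 over all tested genes. Stage 4 replicate 3 was the highest stage 4 library for 13 of them, replicate 1 for 8 and replicate 2 for 7. Stage 4 was the stage with the highest mean for 20 of the 28, and stage 2 or 3 for the other 8. Both stage 6 libraries lay below all stage 4 libraries for all 28, against 48.4% of all tested genes, which the choice by size of fall largely fixes. Since stage 4 values chose the group, its height at stage 4 is a description only.

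Among the smaller falls, stage 6 replicate 1 was more often the lower of both stage 6 libraries. Of the 1576 genes that fell 2-fold to 4-fold, replicate 1 was the higher stage 6 library in 24.3%, and of the 4788 that fell under 2-fold in 33.6%, against 44.4% of all tested genes. Their median levels were 11.4 FPKM at stage 6 and 28.7 FPKM at stage 4 for the 2-fold to 4-fold falls, and 21.6 FPKM at stage 6 and 34.6 FPKM at stage 4 for the smaller ones.

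The groups set by the change between stages 6 and 4 were followed through the whole series. The median log2(FPKM + 1) of the 474 genes was 1.98 at stage 2, 2.41 at stage 3, 2.38 at stage 4, 4.77 at stage 5 and 5.29 at stage 6, a plateau over stages 3 and 4 and a step before stage 5. The 1183 genes that rose 2-fold to 4-fold had medians of 3.11, 3.52, 3.53, 4.42 and 4.91 at stages 2 to 6. The 1576 genes that fell 2-fold to 4-fold had medians of 5.14, 4.98, 4.88, 4.04 and 3.62 and so were lower at each stage than at the one before. The 28 genes with larger falls differed in course, with medians of 4.19, 4.42, 5.14, 3.17 and 2.75. Values of stages 4 and 6 set these groups, so low or high levels at stage 4, and part of the steps after it, are built in.

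**Figure D3:**
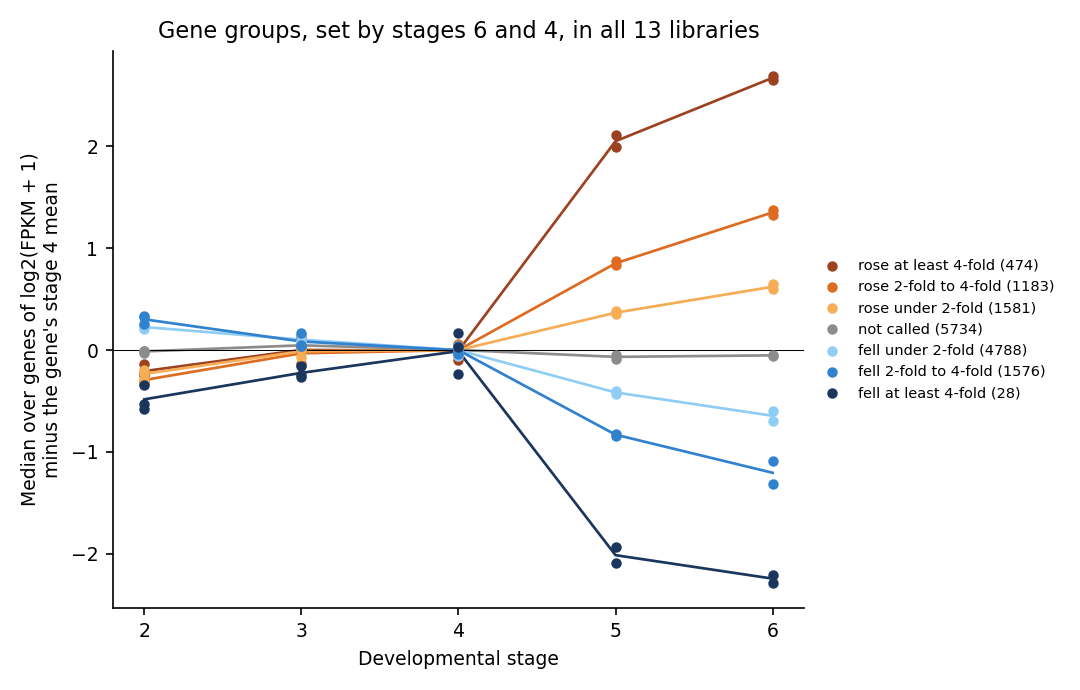
For each of 7 gene groups set by the change between stages 6 and 4, points give the median over genes of log2(FPKM + 1) minus the gene's stage 4 mean in each of the 13 libraries, and lines join the stage means. At stages 2 and 3 the groups lie between -0.58 and 0.33, the lowest being the 28 genes with falls of at least 4-fold, and they fan out at stages 5 and 6.

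With the deposited scaling, libraries that the contrast did not use gave the same directions for most of these genes. Stage 5 and stage 3 share no library with stages 6 and 4, and in the same limma fit 17.1% of all tested genes were called higher and 37.8% lower at stage 5 than at stage 3. Contrasts of 1 fit share each gene's estimate of spread, so genes called in the first are more readily called again. The calls are therefore not independent, while the median changes do not use that estimate. Of the 3238 genes that rose at stage 6, 2078 (64.2%) were called higher and 42 lower at stage 5 than at stage 3, with a median log2 change of 0.67, against -0.24 over all tested genes. Of the 474 with at least 4-fold rises, 418 were called higher and 2 lower, with a median of 2.09 in place of the 2.64 that chose them. Of the 6392 that fell, 4694 (73.4%) were called lower and 30 higher, with a median of -0.59. With median ratio scaling in the contrast of stages 5 and 3, 2513 of the 3238 genes (77.6%) were called higher and 12 lower. Of the 6392 genes, 2958 (46.3%) were then called lower and 150 higher, with a median of -0.35. Over all tested genes, 25.3% were called higher and 21.5% lower with that scaling. Its factors were 0.912 and 0.894 at stage 5 and 1.07 to 1.09 at stage 3. Dividing by them moves changes upwards in this contrast too. Of the 28 genes with falls of at least 4-fold, 18 were called lower at stage 5 and none higher, with a median of -1.38 in place of -2.20.

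The same genes moved far less between stages 2 and 3. In that contrast, which called 9.0% of all tested genes higher and 6.76% lower at stage 3 than at stage 2, 696 of the 3238 genes (21.5%) were called higher and 20 lower, with a median log2 change of 0.26, against 0.03 over all tested genes. Of the 6392 that fell later, 834 were called lower and 159 higher, with a median of -0.13. Of the 474, 53 (11.2%) were called higher and 1 lower, a smaller share than among all 3238, though the difference was not tested.

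The transcript pool shifted towards the genes that rose. The 3238 genes that rose held 42.8% and 39.9% of the reads in the stage 6 libraries, against 19.7%, 19.4% and 20.7% in the stage 4 libraries. The 6392 that fell held 29.3% and 32.1% at stage 6, against 51.5%, 52.4% and 50.9% at stage 4. The 5734 genes not called held 27.9% and 28.0% at stage 6, against 28.7%, 28.2% and 28.3% at stage 4. These shares describe groups that were chosen by the same values and carry no test. Most of the gain was not in the steepest rises, since the 474 genes held 5.18% and 4.87% of the reads at stage 6, against 0.751%, 0.741% and 0.828% at stage 4.

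**Figure D4:**
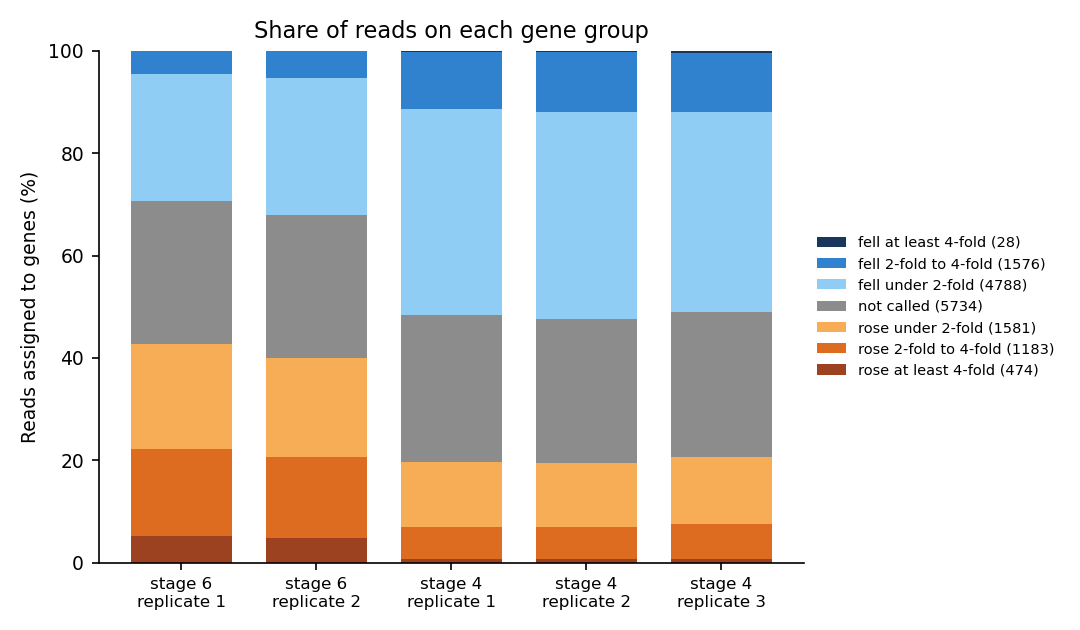
Stacked bars give the percentage of reads on each gene group in the 2 stage 6 and 3 stage 4 libraries, the rest up to 100% lying on genes not tested. Genes that rose hold 39.9% to 42.8% of the reads at stage 6 and 19.4% to 20.7% at stage 4, while genes not called hold a nearly equal share in all 5 libraries.

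Reads were more concentrated on a few genes at stage 6. The 100 genes with most reads held 19.1% and 17.9% of the reads in the stage 6 libraries, against 11.9%, 12.5% and 13.3% in the stage 4 libraries. These ranges are separate, with p = 0.2 in a two-sided exact permutation test, and 2 libraries against 3 can give no smaller p. Of the summed increase in mean FPKM over the genes with higher means at stage 6, the 100 genes with the largest increases made up 48.3%. The top 10 genes by reads held 4.86% and 4.58% at stage 6, against 2.58%, 2.74% and 3.04% at stage 4. The median FPKM of tested genes was lower at stage 6, with 22.3 and 22.7 FPKM, against 26.4, 25.7 and 24.9 FPKM at stage 4 (exact permutation p = 0.2, again the smallest possible).

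The makeup of the most abundant transcripts differed between stages beyond the very top. Among the 10 genes with the highest FPKM, a stage 6 and a stage 4 library shared 7 to 8, both stage 6 libraries shared 6 and pairs of stage 4 libraries shared 10. Between 43 and 52 of the 100 genes with the highest FPKM were shared by a stage 6 and a stage 4 library, whereas both stage 6 libraries shared 89 and pairs of stage 4 libraries 87 to 92. Among the 1000 highest, 750 to 778 were shared between stages, 928 within stage 6 and 909 to 941 within stage 4. The 10 genes with the highest mean at stage 6, at 4541 to 18485 FPKM, all passed the test as higher than at stage 4, where they were at 324 to 13612 FPKM. Of the 100 with the highest mean at stage 6, 85 rose and 8 fell, where 21.1% of all tested genes rose and 41.6% fell. Of the 100 with the highest mean at stage 4, 34 rose and 61 fell, but 9 of the 10 highest at stage 4 rose as well. With median ratio scaling the counts for those 100 genes of stage 4 were 36 and 46, where 30.1% of all tested genes rose and 27.3% fell. Genes high at a stage are more readily found to be higher at that stage, so these counts describe the pool and carry no test.

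The balance of rises and falls varied with the level of the genes. Among the 7186 genes with a mean of over 10 to 50 FPKM over both stages, 18.0% rose and 45.5% fell, and the median log2 change was -0.31. Among the 360 genes over 500 FPKM, 35.6% rose and 43.6% fell, and 18.1% rose at least 2-fold while 4.17% fell that much, with a median of -0.03. Among the 2027 genes of over 1 to 5 FPKM, 21.3% rose and 32.3% fell, with a median of -0.22. Highly expressed genes were also shorter, with a median coding length of 519 bases over 500 FPKM and 1116 bases from 10 to 50 FPKM.

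Genes with long coding sequences fell more often. Lengths were taken from the FPKM values themselves, and tested genes were put into 5 classes of nearly equal size. Of the 3070 genes with coding lengths of 1740 to 15810 bases, 14.1% rose and 54.4% fell, with a median log2 change of -0.45. Of the 3089 genes of 90 to 531 bases, 22.2% rose and 34.2% fell, with a median of -0.17. The classes of 534 to 855, 858 to 1221 and 1224 to 1737 bases had medians of -0.17, -0.19 and -0.27, and 37.5%, 38.3% and 43.7% of their genes fell. The share called as falls thus increased from class to class, with the largest step at the longest class. Falls of at least 2-fold made up 9.87%, 9.17%, 9.24%, 11.0% and 12.9% from the shortest to the longest class and so did not increase at each step. At equal FPKM a longer gene holds more reads, and the part of read number in the called shares was not tested. Genes of over 10 to 50 FPKM alone gave -0.45 in the longest and -0.23 in the shortest class. Median ratio scaling gave -0.21 and 0.08. Leaving out each of the 5 libraries in turn kept the median of the longest class between -0.50 and -0.40 and that of the shortest between -0.19 and -0.15. In the libraries of stages 5 and 3 the medians were -0.33 and -0.21.

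The same difference was visible in the reads of single libraries. The longest class held 24.3% and 25.5% of the reads in the stage 6 libraries, against 29.2%, 30.7% and 29.2% in the stage 4 libraries, with no overlap (exact permutation p = 0.2, the smallest possible). The stage 5 libraries were at 26.9% and 25.2%, and the libraries of stages 2 and 3 at 28.5% to 31.0%. The shortest class held 14.9% and 14.3% at stage 6, against 14.0%, 13.4% and 13.9% at stage 4. Stage 2 libraries were at 14.7%, 15.4% and 14.3%, stage 3 libraries at 13.8% to 14.3% and stage 5 libraries at 14.3% and 15.4%, so the stage 6 shares lay within the range of the other stages. The part of RNA quality in this result was not tested.

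**Figure D5:**
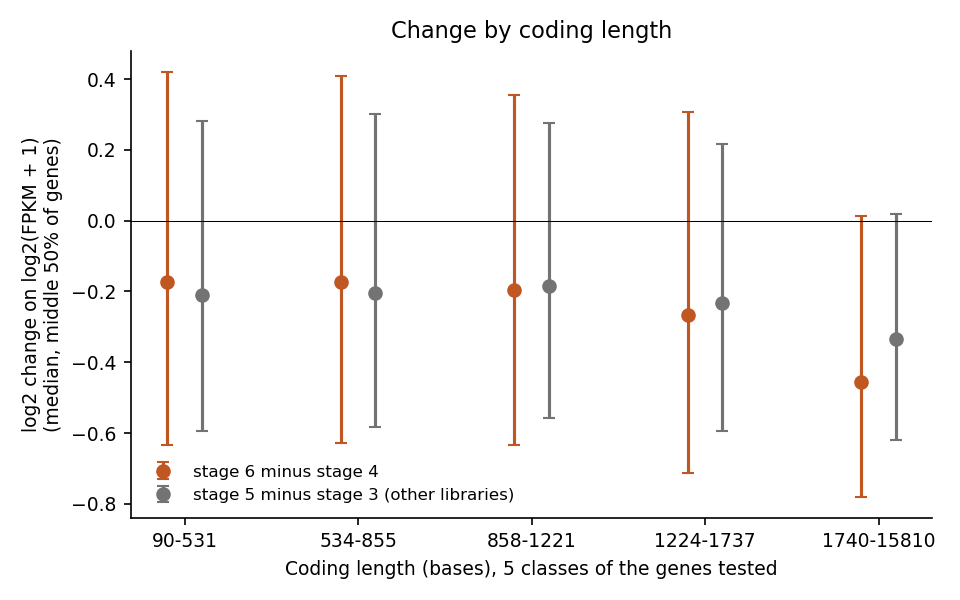
For 5 classes of coding length in bases, points give the median log2 change over genes and bars the middle 50% of genes, for stage 6 minus stage 4 (orange) and for stage 5 minus stage 3, which uses other libraries (grey). In both contrasts the median is lowest in the class of 1740 to 15810 bases, at -0.45 and -0.33.

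Slightly more genes were detected at stage 6. At or above 1 FPKM there were 14981 and 15146 genes in the stage 6 libraries, against 14900, 14872 and 14864 in the stage 4 libraries, although the stage 6 libraries held fewer reads. The groups did not overlap, and the exact permutation test gave p = 0.2, the smallest possible. At or above 5 FPKM the difference was turned, with 12743 and 12918 genes at stage 6, against 12949, 12962 and 12913 at stage 4, and the groups overlapped (exact permutation p = 0.4).

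For most genes that were not called, a large change could be bounded on the scale and with the scaling used. The 95% interval of the log2 change lay within 2-fold in either direction for 4867 of the 5734 genes not called (84.9%). That holds on log2(FPKM + 1), which understates changes near 1 FPKM, so it does not bound the ratio of FPKM for low genes. With median ratio scaling, the median log2 change of all 5734 was 0.20 in place of -0.05, and 1392 of the 5734 were called as rises. For the other 867 the interval was wider, so a 2-fold change of those genes is not excluded. Their median level was 4.88 FPKM, against 26.1 FPKM for the 4867, and the part of depth and of the spread between libraries in these widths was not tested.

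Some genes with large changes were listed next to each other. Of the 474 genes that rose at least 4-fold, 69 (14.6%) had such a gene as the preceding or following ID with the same leading number, against 694 of the 14890 other tested genes (4.66%). At least 2-fold, rising genes had such a neighbour in 415 of 1657 cases (25.05%), against 2201 of 13707 other tested genes (16.1%). For falls of at least 2-fold the shares were 379 of 1604 (23.6%) and 2244 of 13760 (16.3%). Neighbouring IDs can be copies of 1 gene whose reads a counter splits or shares, no position was taken from the IDs, and these shares carry no test.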

How the data were processed

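The authors deposited 1 table of FPKM values for 19623 gene IDs and 13 libraries, with 1 column per sample title. The submitters' processing notes name HTSeq 0.11.3, HISAT2 2.2.1, Trimmomatic 0.39, Picard 2.25.5 and CASAVA 1.8.2. Build, annotation and strand setting were not given in the sources used here, so overlapping antisense genes and near-identical copies remain uncertain.

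Whole reads, totals (7708200 to 10910370 per library) and coding lengths were recovered from the steps of the values, within 0.001 reads for 100% of 17445 genes. The implied lengths of 100% of 9766 genes with over 2000 reads were multiples of 3. The totals had been chosen to make lengths multiples of 3, which largely fixed that share in advance, so it is no separate support for the lengths. Changes were tested with limma 3.58.1 (R 4.3.3, mean-variance trend) on log2(FPKM + 1), a scale that understates changes near 1 FPKM. All 13 libraries entered 1 fit with 8 residual degrees of freedom, over genes that reached 1 FPKM in 2 or more of the 5 libraries of stages 6 and 4. The steps were tested on simulated data. Counting intervals and floors (3 reads) cover counting error only. The 2 largest rises and falls were named among genes with adjusted p under 0.05, a mean of 1 FPKM or more where higher, and groups that did not overlap. No table pairs IDs with products, so the planned product and marker lists were not applied, and no sequence is shown. Members, lists and tests were chosen with earlier results of these data known.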

Additional observations from a re-analysis of the deposited data

How the results depend on the processing

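The count of 9630 called genes stayed within 1.5 times under every alternative run, from 7346 to 9619 when 1 library was left out (a lone stage 6 library is then assumed to vary like the other stages) and from 8512 to 10094 otherwise. Leaving out stage 6 replicate 1 gave the 7346. Median ratio scaling gave 4199 falls, 669 of at least 2-fold and 10 of at least 4-fold, and 2958 falls from stage 3 to stage 5 among the genes that fell. The share of calls that were rises was 52.4% with that scaling, 40.2% with quantile normalization, 34.6% with voom on recovered reads, 34.7% with no filter, 32.1% with a mean of at least 5 FPKM, 32.1% with a pseudocount of 0.01 and 31.9% to 34.8% without 1 library. Changes of at least 4-fold depend on the pseudocount by construction. Rises numbered 715 with a pseudocount of 0.1 and 737 with voom, and falls 119 with 0.1, 140 with 0.01, 106 with voom and 24 to 56 without 1 library. Genes at or above 5 FPKM in place of 1 FPKM differed by -111 (stage 6 minus stage 4). Allowing 3 reads raised the genes silent at stage 4 to 15. The changes of the 4 named genes kept their sign and call in the 64 alternative values that could be had. Both rising genes have none without a stage 6 library, since they then failed the filter. Deviations of libraries with equal replicate numbers correlated by -0.10 and 0.0049, no label ties the numbers, and a replicate block gave 9808 called genes. The voom fit, the 3 reads and the length checks were chosen after seeing the data. With 2 libraries at stage 6 and 3 at stage 4, single values cannot reach an exact p below 0.2.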
